A study of Mus musculus with 3 samples.

Results

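The complement and coagulation factors of plasma were followed here as a set of 38 named liver genes, taken by gene symbol from the deposited tables. All 38 were present among the 49492 entries, and all 38 passed the filter on low values that kept 14585 genes. The set holds 18 complement genes and 20 genes of clotting, its inhibitors and fibrinolysis. Liver RNA of CD-1 mice, an outbred strain whose animals differ from each other genetically, was sequenced in 3 libraries. The control mice received phosphate-buffered saline by mouth, and the other mice an oral suspension of zinc oxide (ZnO) nanoparticles, sonicated beforehand, at 25 mg/kg body weight each day for 8 or 12 weeks. Each group is a single library, so the spread between animals is unknown and p-values are not used. The sex and age of the mice, the number of animals in a library and the time at which the control was taken are not given in the sources used here.

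Complement is a cascade of plasma proteases and binding proteins that marks microbes and damaged cells, draws in phagocytes and ends in a pore of terminal components in the target membrane. Coagulation is a parallel cascade in which thrombin turns soluble fibrinogen into fibrin, while antithrombin, protein C and protein S restrain it and plasmin dissolves the clot. Hepatocytes make most of these proteins. Fibrinogen and C3 are classical acute phase proteins, whose synthesis in liver is increased by interleukin-6 and related cytokines.

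Library totals were 13614979 (control), 14258770 (8 weeks) and 13263211 (12 weeks) counts. Levels are given in CPM, the count of a gene scaled to the size of its library. Log2 ratios compare CPM + 1 of a pair of libraries, and "called" means a difference of 2-fold or more, a threshold on size alone. Exact 95% intervals of the count ratio cover counting error alone. Of 12 hepatocyte markers 11 were in the files, with medians of 0.24 and 0.07 at 8 and 12 weeks and 0 called. These markers differed among themselves, from -0.6 to 0.85 at 8 weeks and from -0.54 to 0.59 at 12 weeks. All 12 Kupffer cell and macrophage markers were called higher at 8 weeks and 11 at 12 weeks, with summed levels of 96.7, 404.6 and 304.8 CPM in the control, 8-week and 12-week libraries. The 9 kept skeletal muscle markers were all called higher at 8 weeks, and that list summed to 1.9, 188.4 and 1.4 CPM, so the 8-week library stands apart in these. Of all kept genes, 4.15% were called higher at 8 weeks and 3.11% at 12 weeks. Of 14 further acute phase genes, 7 were called higher at each time, with medians of 1.03 and 1.06. Among them serum amyloid A2 (Saa2) had 3.32, 49.0 and 684 CPM. Fewer cells of a type and less RNA per cell cannot be told apart in such bulk samples.

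A log2 ratio within 0.25 of the control was found in 21 of the 38 genes at 8 weeks and 23 at 12 weeks, and in 13 at both times. These 55.3% and 60.5% stand beside 49% and 52.1% of all kept genes. Among kept genes with a mean level at least that of the lowest member, the shares were 56.5% and 58.9%. At 8 weeks 1 member was called, the terminal component C6, which was lower, and 0 were higher, where 6.25% of all kept genes were called (4.15% higher and 2.1% lower). At 12 weeks 0 of 38 were called, where 4.46% of kept genes were (3.11% higher and 1.34% lower). Between the treated libraries 1 member, again C6, was higher at 12 weeks and 0 were lower, with 2.51% of kept genes called (1.28% higher and 1.23% lower). The median log2 ratio of the members was 0.05 for each treated library against the control and -0.03 for 12 against 8 weeks, compared with -0.02, -0.01 and -0.00 over all kept genes.

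The smaller threshold of 1.5-fold brought out 4 higher members at 8 weeks, Hc, Cpb2, C4b and Pros1, and 1 lower, C6, where 18.6% of kept genes passed it (10.6% higher and 7.97% lower). At 12 weeks it brought out 5 higher, the 3 fibrinogen chains with Hc and Cpb2, and 0 lower, where 15.5% passed (9.28% higher and 6.22% lower). From 8 to 12 weeks 4 members passed it upwards, C6, Fga, Fgg and C9, and 0 downwards, beside 10.1% of kept genes (5.41% higher and 4.73% lower). The 4094 kept genes with a mean level at least that of the lowest member are a set chosen after the values were seen. Of them 14.2% passed 1.5-fold at 8 weeks (7.28% higher and 6.91% lower) and 11.9% at 12 weeks (6.16% and 5.79%). From 8 to 12 weeks 6.52% did (3.59% higher and 2.93% lower). The typical size of a change, the median without regard to sign, was 0.21 for the members at both times, against 0.21 and 0.20 for those 4094 genes.

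**Figure D1:**
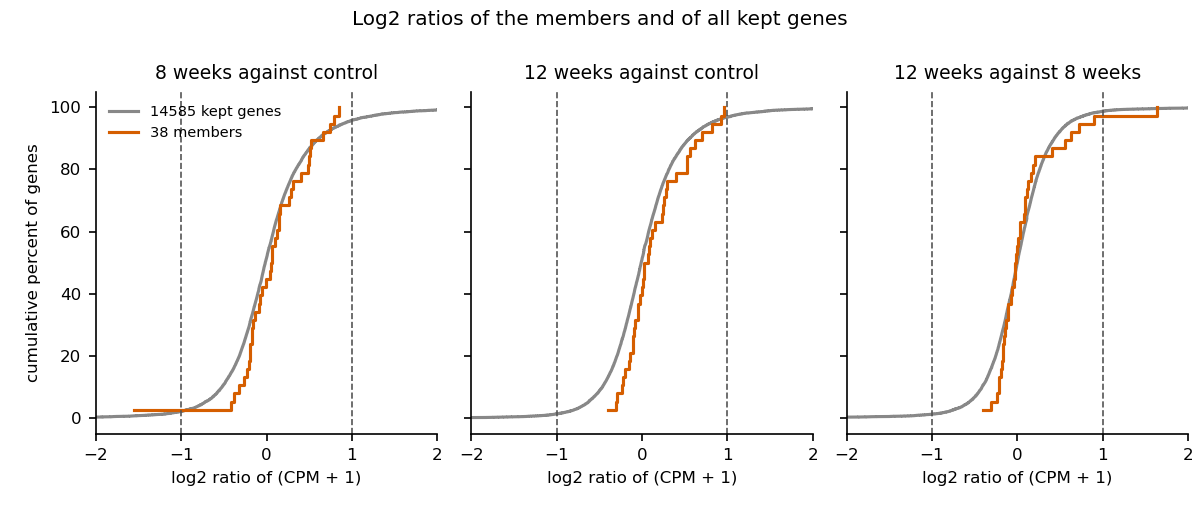
Cumulative percent of genes (vertical axis) by log2 ratio of CPM + 1 (horizontal axis, drawn from -2 to 2) in the 3 comparisons, for the 38 members and the 14585 kept genes; dashed lines mark 2-fold. The members' curve runs close to that of all genes, and 1 member, C6, lies past the 2-fold line, at -1.56 in the first panel and at 1.64 in the last.

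Because a long transcript gives more reads, levels of different genes were compared as CPM per kilobase of the exon length in the files. On that scale the order in the control was led by Fgb (1124), C3 (1014), Fgg (1002), Plg (903), Fga (795) and Mbl2 (715). These are the chains of fibrinogen, the central complement protein, plasminogen and mannose-binding lectin C. The lowest were Pros1 (17.8), Masp1 (16.3) and C2 (7.18). By mean level over the libraries, Fgb ranked 42 and C2 ranked 4227 among the 14585 kept genes. The deposited exon lengths were 0.515 to 2.31 times the length of the principal transcript in GENCODE M21, and shorter than it in 5 members. With that transcript as the length, Fgg led the control order and Masp1 (8.41) stood below C2 (10.5) at its end. Antithrombin (Serpinc1) moved from place 28 to place 17 and prothrombin (F2) from 13 to 8, while Mbl1 moved from 21 to 30. Together the members made up 2.89% of control counts, 3.08% at 8 weeks and 3.71% at 12 weeks.

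**Figure D2:**
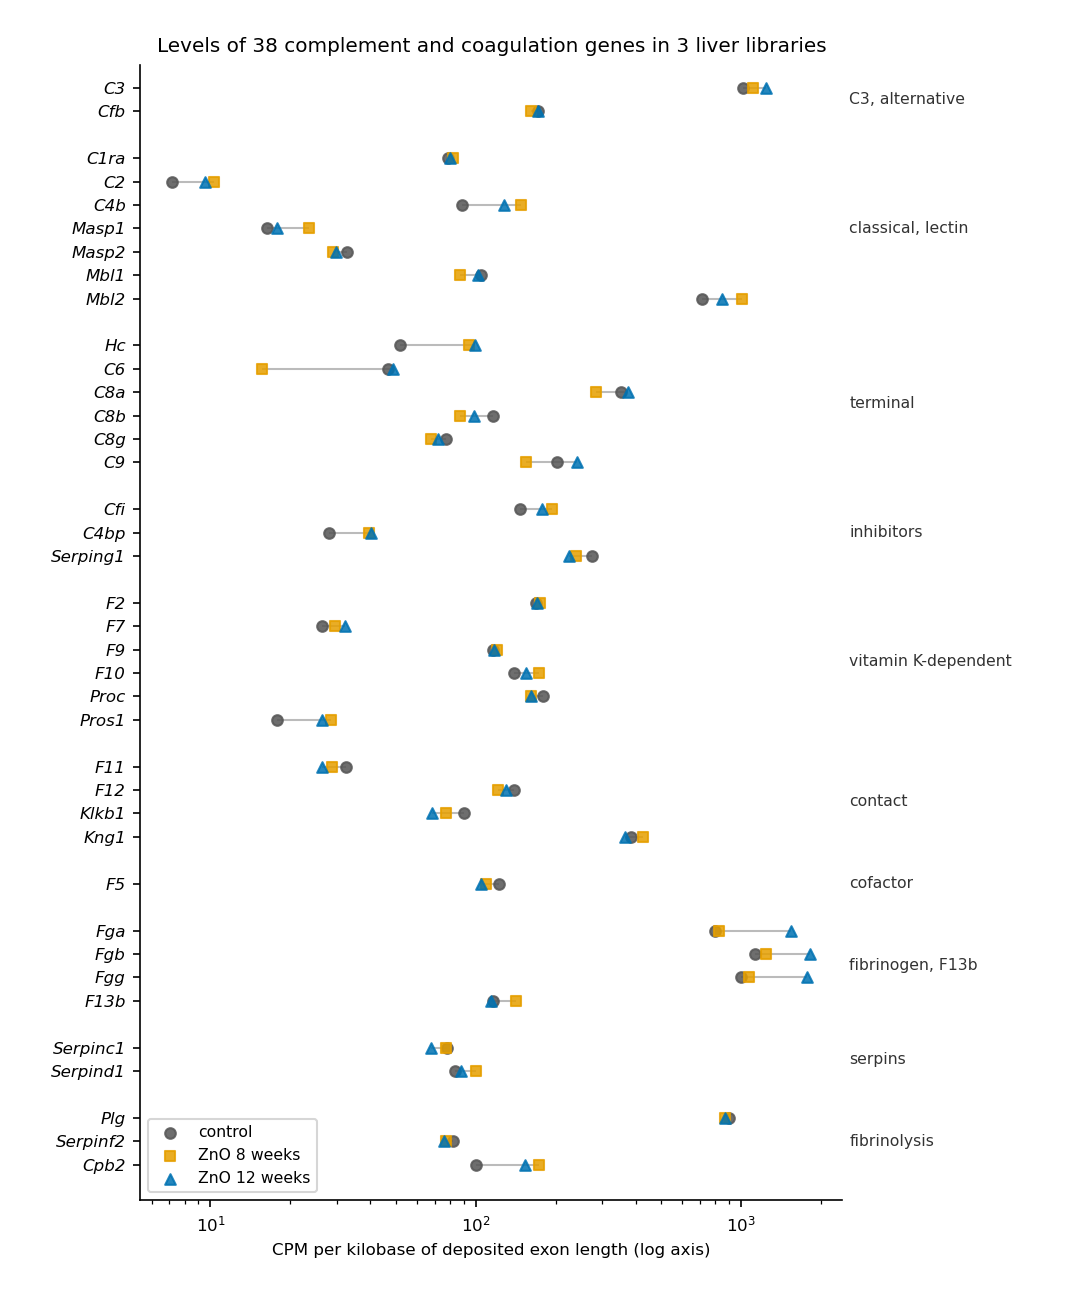
Level of each member in CPM per kilobase of deposited exon length (horizontal log axis) in the control (circles), 8-week (squares) and 12-week (triangles) libraries, 1 library per group, grouped by role. Fgb (1124 in the control), C3 (1014) and Fgg (1002) are furthest to the right, the fibrinogen triangles lie to the right of the other symbols, and the C6 square (15.6) lies to the left of its circle (46.5) and triangle (48.9).

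Fibrinogen carried most of the 12-week difference. The protein is built from Aα, Bβ and γ chains, encoded by Fga, Fgb and Fgg. Fga had 2392 CPM (control), 2489 (8 weeks) and 4650 (12 weeks). Fgb had 4284, 4712 and 6957 CPM in the same order, and Fgg 2097, 2241 and 3699 CPM. In each gene the 12-week library stood well above the others, which lay close together. The log2 ratios at 12 weeks were 0.96 for Fga (counting interval 0.94 to 0.98), 0.82 for Fgg (0.80 to 0.84) and 0.70 for Fgb (0.68 to 0.71), that is 1.94, 1.76 and 1.62 times the control, each short of 2-fold. At 8 weeks they were 0.06, 0.10 and 0.14, and those small values turned negative when the libraries were scaled to hepatocyte markers. Against 8 weeks, the 12-week values were 0.90, 0.72 and 0.56 for Fga, Fgg and Fgb.

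The share of all counts held by fibrinogen was 0.874% (control), 0.949% (8 weeks) and 1.53% (12 weeks). The summed CPM of the 3 chains went from 8773.6 in the control to 15305.4 at 12 weeks, while that of the other 35 members went from 20214.1 to 21810.9. Of the 49 kept genes with at least the control CPM of Fgg, 4 were 1.5-fold higher or more at 12 weeks, and Fga, Fgg and Fgb had the highest ratios among them. That cut was set by Fgg itself and was chosen after the values were seen. It leaves out genes below it such as haptoglobin (Hp), at 1198 CPM in the control, whose ratio at 12 weeks was 0.80. Over all kept genes, 500 (3.43%) had a ratio at least as high as that of Fga. Per length, Fga and Fgg stood higher relative to Fgb at 12 weeks: the ratio of Fga to Fgb was 0.707 (control), 0.669 (8 weeks) and 0.846 (12 weeks), and that of Fgg to Fgb was 0.891, 0.866 and 0.968. With principal transcript lengths the first ratio was 0.822, 0.778 and 0.984 and the second 1.1, 1.07 and 1.19, so which chain is the more abundant depends on the length used. The opposite-strand entry Gm30097 shares 115 exon bases with Fgg and had 5793, 6739 and 9742 counts.

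Genes of the acute phase and of cytokine signalling did not share 1 order over the libraries. From 8 to 12 weeks 3 of the 14 further acute phase genes were called higher and 0 lower (median 0.47). Of 22 hepatocyte transcription factors and cytokine receptors 1 was called higher and 0 lower (median 0.18). Over all kept genes the shares were 1.28% higher and 1.23% lower. Haptoglobin (Hp) had 1198, 1167 and 2080 CPM in the control, 8-week and 12-week libraries, highest at 12 weeks, whereas orosomucoid 1 (Orm1) had 186, 576 and 568 CPM and was high at both times. Socs3, a feedback inhibitor induced by interleukin-6 signalling, had 8.62, 5.65 and 18.3 CPM, and the interleukin-1 receptor Il1r1 had 130, 143 and 268 CPM. The interleukin-6 receptor Il6ra was highest at 8 weeks, at 73.3, 140 and 113 CPM. These genes were chosen after their values were seen, and their part in the fibrinogen values was not tested.

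The fibrinogen genes lie side by side on mouse chromosome 3 (mm10), Fgg at 83007724 to 83015049 and Fga at 83026076 to 83033627 on the plus strand and Fgb at 83040141 to 83049863 on the minus strand, with 6.51 kb between Fga and Fgb. Their upstream sequences from RefSeq (GRCm38.p6) are printed because these 3 genes had like values. Each runs 5′ to 3′ from 250 bases before the RefSeq start up to the deposited gene model. Capitals mark matches, on either strand, to letters bound by factors of the acute phase and of hepatocytes: CTGGGAA (the interleukin-6 response element type), TTCNNNGAA (STAT type), TTGCNNAA (C/EBP type) and GTTAAT (the shorter HNF1 type).
Fga, chr3:83025903-83026075, plus strand: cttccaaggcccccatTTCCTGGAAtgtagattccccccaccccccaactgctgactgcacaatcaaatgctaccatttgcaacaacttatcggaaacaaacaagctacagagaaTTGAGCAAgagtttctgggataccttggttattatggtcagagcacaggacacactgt
Fgb, chr3:83049864-83050113, minus strand: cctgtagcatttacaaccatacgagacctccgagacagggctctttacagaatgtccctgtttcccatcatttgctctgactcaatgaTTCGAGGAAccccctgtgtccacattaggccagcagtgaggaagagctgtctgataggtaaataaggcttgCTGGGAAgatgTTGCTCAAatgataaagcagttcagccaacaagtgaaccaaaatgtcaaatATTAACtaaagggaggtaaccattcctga
Fgg, chr3:83007474-83007723, plus strand: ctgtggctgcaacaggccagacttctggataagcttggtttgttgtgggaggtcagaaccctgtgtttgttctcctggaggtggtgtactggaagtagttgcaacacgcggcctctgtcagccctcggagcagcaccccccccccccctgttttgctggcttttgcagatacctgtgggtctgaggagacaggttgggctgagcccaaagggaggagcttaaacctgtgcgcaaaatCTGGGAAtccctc
With position -1 as the base before the RefSeq start, Fgb held TTCGAGGAA at -162, CTGGGAA at -91, TTGCTCAA at -80 and ATTAAC, the reverse complement of GTTAAT, at -29. Fgg held CTGGGAA at -13. Fga held TTCCTGGAA at -234 and TTGAGCAA at -135, and the reverse complement of GTTAAT at -43, which lies inside the deposited gene model and is not printed.

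The same search over the 250 upstream bases of 10053 kept genes, 1 start per gene, covered 29 of the 38 members. GTTAAT was found in 8 of 29 members (27.6%) and 4.24% of all genes searched, TTGCNNAA in 7 (24.1%) and 7.66%, TTCNNNGAA in 6 (20.7%) and 6.05%, and CTGGGAA in 5 (17.2%) and 9.33%. In F9 and Masp2 the CTGGGAA match shares bases with the TTCNNNGAA match. TGTTTAC (FOXA type) was in 2 members (6.9%), F11 and Klkb1, and in 2.23% of genes. TATAAA was in 2 members and 6.61% of genes. CAAAGTCCA (HNF4 type), an NF-kappaB consensus and a longer HNF1 consensus were in 0 members and in 0.448%, 0.348% and 0% of genes. A match describes letters and does not show that a factor is bound.

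In the terminal pathway, whose proteins assemble the membrane pore, C6 was the member with the largest difference. C6 binds C5b and starts that assembly. It had 188 CPM (control), 62.9 (8 weeks) and 197 (12 weeks), from 2549, 901 and 2615 counts. The 8-week library was thus far below the others, which were close to each other. The log2 ratio was -1.56 at 8 weeks (-1.69 to -1.47) and 0.07 at 12 weeks (-0.01 to 0.15), and 1.64 between 12 and 8 weeks (1.54 to 1.76). Of all kept genes, 98 (0.672%) were at least as low at 8 weeks. Of the 307 genes called lower at 8 weeks, 30 were within 0.25 of the control at 12 weeks, as C6 was, and 68 were called higher from 8 to 12 weeks. Over all kept genes these shares were 52.1% and 1.28%. The 307 were picked by a low 8-week value, which also enters the ratio of 12 to 8 weeks and so favours higher calls there. The C6 value comes from the library that also held the skeletal muscle transcripts, whose part in it was not tested.

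C9, which polymerises into the wall of the pore, also had its lowest value at 8 weeks, at 518 CPM (control), 397 (8 weeks) and 613 (12 weeks) (log2 ratios of -0.38 and 0.24). C8 joins 3 chains, and C8a had 1287, 1032 and 1369 CPM, C8b 296, 221 and 250, and C8g 116, 101 and 107. All 3 were lowest at 8 weeks, with ratios of -0.32, -0.42 and -0.19, and at 12 weeks they stood at 0.09, -0.24 and -0.11. For C8g the ratio of 12 to 8 weeks was 0.09, with a counting interval that included 0 (-0.02 to 0.19). Per length, the level of C8a over that of C8b was 3.04 (control), 3.27 (8 weeks) and 3.83 (12 weeks). C8a and C8b are neighbours on chromosome 4, 11.1 kb apart. C6 and C9 lie 1630 kb apart on chromosome 15 (C6 at 4727175 to 4815456, C9 at 6445327 to 6498751).

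Hc, which encodes complement C5, went the other way and was high in both treated libraries. It had 326 CPM (control), 588 (8 weeks) and 621 (12 weeks). The ratios were 0.85 (0.80 to 0.91) and 0.93 (0.88 to 0.98), that is 1.81 and 1.91 times the control, and 0.08 between the treated libraries. Per length, C9 relative to Hc was 3.90 (control), 1.65 (8 weeks) and 2.42 (12 weeks). An entry on the opposite strand, Gm13449, shares 76 exon bases with Hc and had 168, 342 and 357 counts. Since the use of strand in counting is not given in the sources used here, reads in the shared bases cannot be assigned to one or the other.

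Upstream sequences of Hc, C6 and C9 are shown because these terminal genes differed most between libraries. They were searched for the same letters, and a TATAAA match is also in capitals.
Hc, chr2:35061439-35061662, minus strand: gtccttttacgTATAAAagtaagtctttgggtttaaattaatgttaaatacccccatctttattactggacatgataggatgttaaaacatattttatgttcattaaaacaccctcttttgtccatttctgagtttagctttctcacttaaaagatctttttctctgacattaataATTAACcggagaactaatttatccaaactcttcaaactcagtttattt
C6, chr15:4726960-4727174, plus strand: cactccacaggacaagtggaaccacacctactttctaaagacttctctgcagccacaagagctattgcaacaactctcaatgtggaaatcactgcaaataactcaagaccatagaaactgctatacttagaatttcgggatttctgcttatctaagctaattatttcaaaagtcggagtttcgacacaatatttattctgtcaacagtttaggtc
C9, chr15:6445096-6445326, plus strand: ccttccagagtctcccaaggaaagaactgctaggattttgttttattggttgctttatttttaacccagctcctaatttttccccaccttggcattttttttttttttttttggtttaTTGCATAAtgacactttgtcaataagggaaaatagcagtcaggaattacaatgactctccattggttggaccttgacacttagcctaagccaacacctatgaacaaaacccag
The Hc stretch holds TATAAA at -239 and the reverse complement of GTTAAT at -74, and C9 holds TTGCATAA at -132. For C6 none of the searched letters were found in this window.

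**Figure D3:**
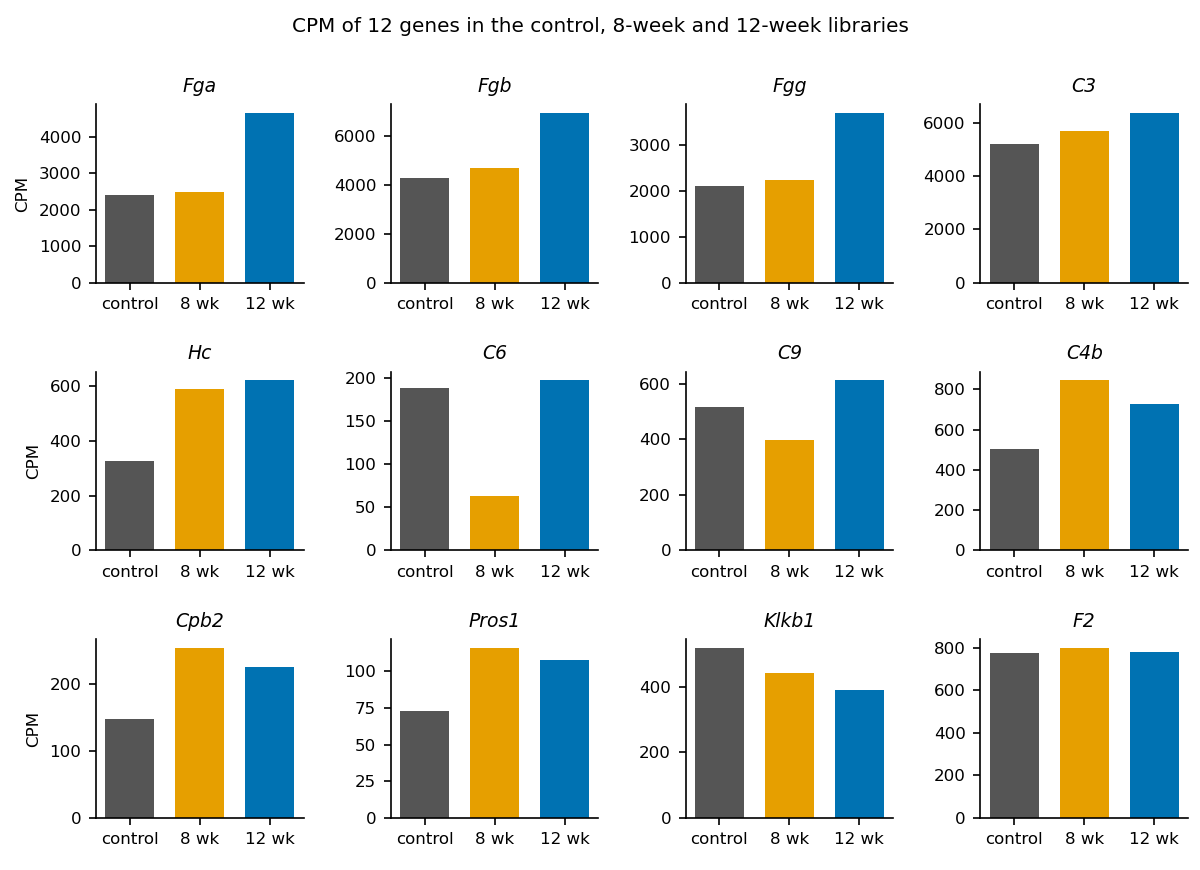
CPM (vertical axes from 0, each gene on its own scale) of 12 members in the control, 8-week and 12-week libraries, 1 library per bar and no replicates. The fibrinogen bars stand out at 12 weeks (Fga at 4650 CPM), C6 is low at 8 weeks (62.9 CPM), Hc, C4b, Cpb2 and Pros1 are above the control at both times, and F2 is level.

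C3 is cleaved by every route of complement activation, and Cfb supplies the protease that amplifies this step. C3 had 5215 CPM (control), 5682 (8 weeks) and 6363 (12 weeks), with log2 ratios of 0.12 (0.11 to 0.14) and 0.29 (0.27 to 0.30). The counting intervals are narrow because C3 had 70759 to 84272 counts. At 8 weeks its value changed sign when the libraries were scaled to hepatocyte markers. Cfb had 484, 456 and 485 CPM, a difference of -0.09 at 8 weeks and 0.00 at 12 weeks.

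Of the 7 genes of the classical and lectin pathways, C4b and Mbl2 differed from the control by the largest CPM. C4b, whose product joins C2 in the C3-cleaving enzyme of these routes, had 504, 844 and 727 CPM, with ratios of 0.74 (0.70 to 0.79) and 0.53 (0.48 to 0.57). Its near-identical neighbour C4a had 41.4, 95.2 and 146 CPM, with ratios of 1.18 and 1.79. Per length C4a was 0.0754 of C4b (control), 0.103 (8 weeks) and 0.184 (12 weeks), and reads of such close copies can be assigned to either. C2 had 27.8, 40.0 and 36.9 CPM (0.51 and 0.40). C2 and Cfb both share exon bases with the same-strand entry Gm20547 (1656 and 2246 bases), which had 6776 counts in the control, close to the 6567 of Cfb. The 3 entries summed to 13720, 13991 and 13661 counts (-0.05 and 0.03), so single values of C2 and Cfb are uncertain.

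Mannose-binding lectins recognise microbial sugars and carry the MASP proteases. Mbl2 had 787, 1107 and 936 CPM (0.49 and 0.25), and Mbl1 had 96.8, 80.8 and 93.7 CPM (-0.26 and -0.05). Mbl2 was thus above the control at 8 weeks and Mbl1 below it, and their ratio per length was 0.147 (control), 0.087 (8 weeks) and 0.119 (12 weeks) for Mbl1 to Mbl2. Masp1 had 45.0, 64.8 and 48.9 CPM (0.52 and 0.12), high at 8 weeks alone. Masp2 had 108, 95.9 and 97.8 CPM (-0.17 and -0.14), but shares 1817 exon bases with Tardbp on the opposite strand. C1ra, a protease of the C1 complex, was level at 235, 244 and 239 CPM (0.05 and 0.02), and its close copy C1rb had 18.9, 18.7 and 17.7 CPM.

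Among the inhibitors of complement, C4bp, which speeds the decay of the C4b-C2 enzyme, had 188, 267 and 272 CPM (0.50 and 0.53). Factor I (Cfi), the protease that inactivates C3b and C4b, had 327, 431 and 392 CPM (0.40 and 0.26). Serping1, the C1 inhibitor that also restrains kallikrein and factor XII, had 640, 553 and 522 CPM (-0.21 and -0.29). Both treated libraries were above the control for C4bp and Cfi and below it for Serping1.

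The vitamin K-dependent proteins carry carboxylated glutamates that bind calcium. Prothrombin (F2) was nearly equal in all libraries at 775, 799 and 781 CPM (0.04 and 0.01), as was factor IX (F9) at 317, 329 and 321 CPM. Factor VII (F7) had 48.9, 54.6 and 59.8 CPM (0.16 and 0.28) and its neighbour on chromosome 8, factor X (F10), 380, 472 and 422 CPM (0.31 and 0.15). Protein C (Proc), an anticoagulant protease, had 280, 254 and 252 CPM (-0.14 and -0.15). Its cofactor protein S (Pros1) had 72.9, 116 and 108 CPM, with ratios of 0.66 (0.56 to 0.79) and 0.56 (0.45 to 0.68), the highest of these 6 genes at both times. In 9 kept genes of the vitamin K cycle and of factor secretion, 0 were called at either time, with medians of -0.03 and 0.15. Of all kept genes 6.25% and 4.46% were called, so 0 in so short a list is near that share.

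The contact pathway starts clotting on surfaces and releases bradykinin. Prekallikrein (Klkb1) had 519, 443 and 392 CPM (-0.23 and -0.40) and factor XI (F11), 4.66 kb away on chromosome 8, had 72.7, 64.3 and 58.9 CPM (-0.17 and -0.30). In both genes the control was highest and the 12-week library lowest, and the Klkb1 value at 12 weeks was the lowest of all members. Klkb1 shares 313 exon bases with the same-strand gene Cyp4v3, which had ratios of -0.54 and -0.23. Factor XII (F12) had 272, 236 and 256 CPM (-0.20 and -0.09). Kininogen (Kng1) had 1215, 1344 and 1151 CPM (0.14 and -0.08), and its close copy Kng2 had 221, 237 and 240 CPM. Factor V (F5), the cofactor of factor Xa, had 909, 813 and 781 CPM (-0.16 and -0.22).

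F13b, the carrier subunit of the enzyme that crosslinks fibrin, did not share the fibrinogen values and had 293, 359 and 289 CPM (0.29 and -0.02). Antithrombin (Serpinc1) had 663, 659 and 579 CPM (-0.01 and -0.20) and heparin cofactor II (Serpind1) 183, 219 and 193 CPM (0.26 and 0.08). Serpinc1 shares 2942 exon bases with Zbtb37 on the opposite strand. In fibrinolysis, plasminogen (Plg) had 2487, 2385 and 2395 CPM (-0.06 and -0.05) and its inhibitor antiplasmin (Serpinf2) 190, 179 and 176 CPM (-0.08 and -0.11). Cpb2, the carboxypeptidase that protects fibrin from plasmin, had 147, 254 and 226 CPM, with ratios of 0.79 (0.71 to 0.87) and 0.62 (0.54 to 0.70). It was above the control in both treated libraries, whereas Plg and Serpinf2 stayed within 0.11.

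**Figure D4:**
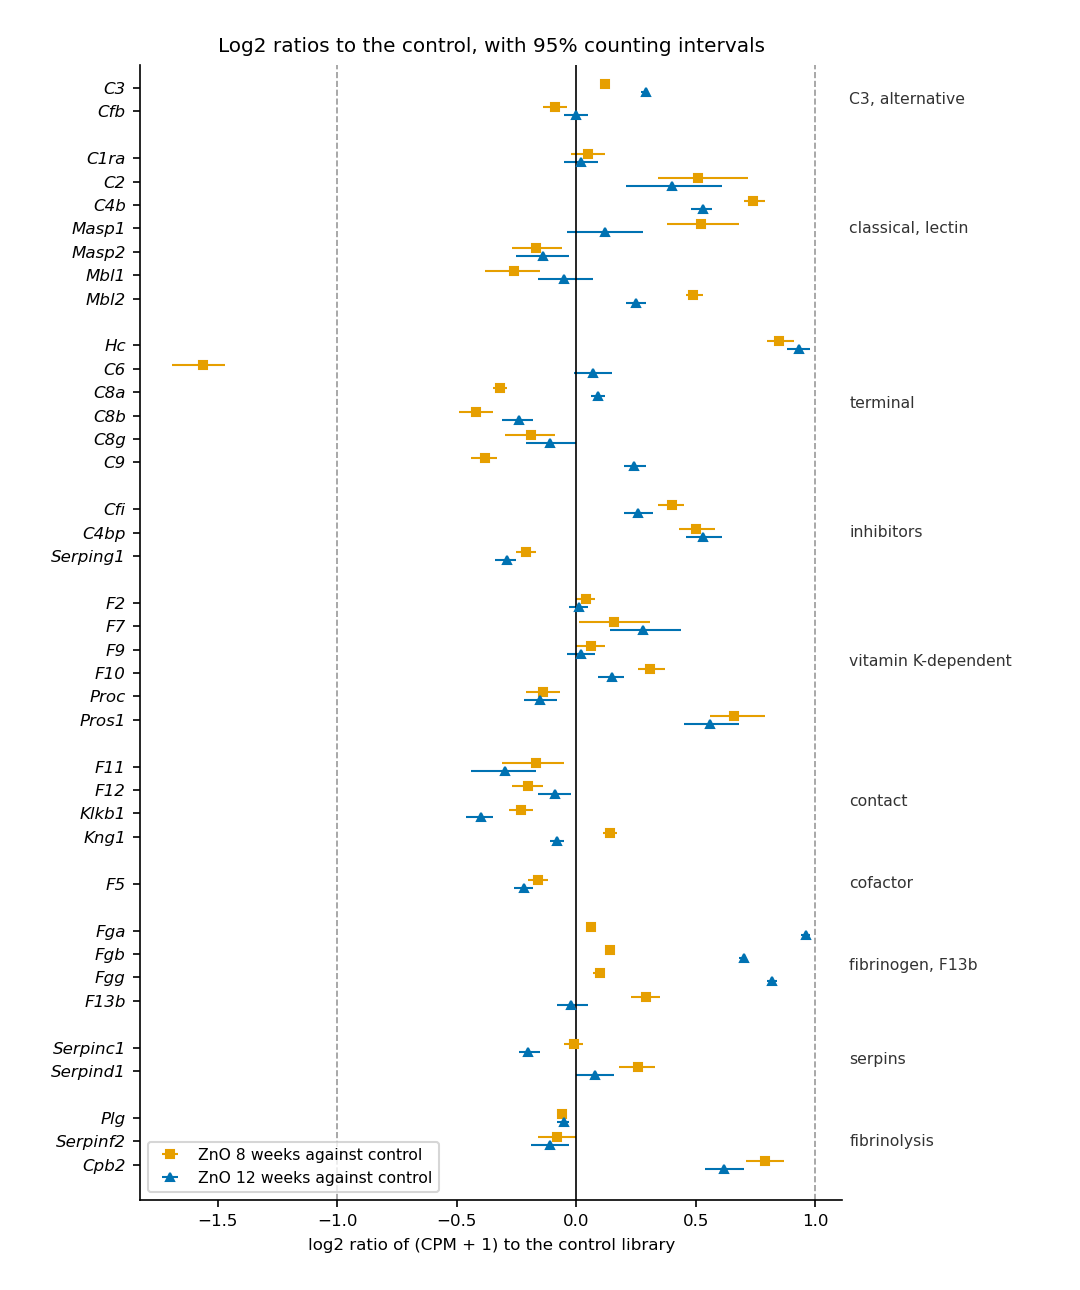
Log2 ratio of CPM + 1 to the control (horizontal axis) for each member at 8 weeks (squares) and 12 weeks (triangles), with exact 95% intervals for counting error; dashed lines mark 2-fold. C6 at 8 weeks (-1.56) is the only point past a dashed line, and Fga (0.96), Hc (0.93), Fgg (0.82) and Fgb (0.70) are the highest at 12 weeks.

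By the order of the 3 libraries, 14 members were highest at 8 weeks, among them C4b, Mbl2, Masp1, F13b and Cpb2, and 10 were lowest there, among them C6, C9 and the C8 genes. These are 36.8% and 26.3% of the members, beside 32.0% and 33.5% of all kept genes. In 7 members the control was lowest and the 12-week library highest (C3, Hc, C4bp, F7 and the fibrinogen chains), and in 7 the order was the reverse (Serping1, Proc, F11, Klkb1, F5, Serpinc1 and Serpinf2). Each of these orders held 18.4% of the members, beside 16.4% and 18.1% of kept genes. These orders include differences smaller than counting error, as in C1ra, and both treated libraries were compared with the same control.

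Other genes of these pathways were taken by symbol in 3 lists, of which that for the vitamin K cycle and secretion is given above. Of 30 kept complement genes outside the 38, 8 were called higher and 0 lower at 8 weeks (median 0.37), where 4.15% of all kept genes were higher and 2.1% lower. At 12 weeks 9 were higher and 0 lower (median 0.33), where 3.11% of kept genes were higher and 1.34% lower. The C1q chains, which macrophages make, were among them: C1qa had 13.2, 40.2 and 36.7 CPM, C1qb 2.80, 12.9 and 11, and C1qc 5.09, 22.8 and 16.9. Properdin (Cfp, 3.17, 10.7 and 9.82 CPM), ficolin A (Fcna, 7.74, 19.2 and 23.1), the complement receptor Vsig4 (3.61, 16.2 and 9.89) and the integrin Itgb2 (2.06, 8.24 and 6.87) were also called higher at both times, as was C4a. The C1q chains and Vsig4 are also on the list of Kupffer cell markers, all of which were above the control at both times. The regulator Cd46, at 9.29, 6.98 and 16.8 CPM, was called higher from 8 to 12 weeks (1.16).

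Of 27 kept genes of coagulation and fibrinolysis outside the 38, 3 were called higher and 1 lower at 8 weeks (median 0.21). At 12 weeks 2 were higher and 1 lower (median 0.22). Of all kept genes, 4.15% were higher and 2.1% lower at 8 weeks, and 3.11% and 1.34% at 12 weeks. The difference in calls between these lists and the 38 members was not tested. Factor VIII (F8) had 16.4, 44.3 and 28.5 CPM (1.38 and 0.76). The fibrinogen-like protein Fgl1, secreted by hepatocytes, had 842, 2161 and 1104 CPM (1.36 and 0.39), and so was high at 8 weeks, when the fibrinogen chains were near the control. Fgl2 had 1.25, 5.16 and 3.62 CPM (1.45 and 1.04). Thrombomodulin (Thbd) had 1.92, 2.86 and 5.44 CPM (0.41 and 1.14), and the protease inhibitor Serpine2 was lower at 12.7, 4.47 and 2.87 CPM (-1.32 and -1.82).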

How the data were processed

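Liver RNA was made into Illumina TruSeq libraries, per the labels' protocols. The authors deposited estimated counts for each gene, unscaled and with fractions, as the values and the file headers show. TopHat2 (2.1.0), Cufflinks (2.2.1.0) and 2 genome builds, mm10 and mm9, are listed in the submitters' processing notes, without their roles. The counting program and strand setting are not given in the sources used here. Of the 38 members, 29 have the same bounds as in GENCODE M21, so the coordinates are those of mm10.

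Counts were rounded and scaled with edgeR 4.0.16 under R 4.3.3 (TMM factors 0.997, 1.005 and 0.999). Genes under 1 CPM in every library were dropped. Ratios use a pseudocount of 1 CPM, which understates low genes, and the Clopper-Pearson intervals use none. Reads lack molecular identifiers and may be copies of one molecule, which intervals do not cover. Calls and intervals were tested on simulated data that held counting error alone, so that test does not cover the spread between animals or copied reads. Alternatives were other pseudocounts, filters, scalings (including DESeq2 1.42.0) and thresholds.

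The members and lists were chosen with earlier results of these data known. Every member is named. Related genes are named if called with 5 CPM or more in a library of that comparison, or as close copies of members (C4a, Kng2, C1rb), and of each context list at most 3 genes, picked after their values were seen. Overlapping entries were chosen by position. RefSeq upstream sequences were matched by symbol for 29 members. Cfb, C2, C4b, Masp1, Cfi, Serping1, Proc, Kng1 and Plg were not searched.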

Additional observations from a re-analysis of the deposited data

Results flagged for a closer look

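For 3 members the 8-week and 12-week libraries lay on opposite sides of the control, each by more than the counting interval. C8a had log2 ratios of -0.32 at 8 weeks and 0.09 at 12 weeks, C9 of -0.38 and 0.24, and Kng1 of 0.14 and -0.08. Scaled by hepatocyte markers, Kng1 was below the control at both times (-0.10 and -0.15). That scaling shifted 12-week ratios by up to 0.07. C8a kept its sign at 12 weeks, but its 0.09 (0.06 to 0.12) is little more than that shift. The differences between the times were not tested, since each time has 1 library, and both ratios use the same control.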

How the results depend on the processing

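The summary values of the 3 comparisons (the median of the members and the numbers called higher and lower) were recomputed under 10 settings, 1 of them added after seeing the data (TMM over the 2 compared libraries). Of 90 such values 83 stayed near the reported ones, but several settings could hardly move them. All 38 members passed every filter, and the TMM factors were nearly equal. The filters, unrounded counts and TMM over the 2 compared libraries gave a largest shift of 0.0. DESeq2 factors and library totals shifted members by at most 0.01. Scaling by hepatocyte markers moved the median of all kept genes to -0.23 (8 weeks), -0.07 (12 weeks) and 0.15 (12 against 8 weeks), and that of the members to -0.19, -0.03 and 0.14. It gave 2 members called higher at 12 against 8 weeks, Fga and C6. In the 3 comparisons it moved 38, 26 and 37 of the 38 members beyond their counting intervals and changed the sign of 9, 5 and 12. At 1.5-fold, 4, 5 and 4 members were called higher. The call of C6 and the positive 12-week values of Hc and the fibrinogen chains held under all 10 settings. No paired analysis was possible because each group has 1 library. Each member had at least 377 counts. The counting interval still included 0 in some of them, such as Masp1 at 12 weeks (-0.04 to 0.28), and the spread between animals is unknown.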
